A study of Arabidopsis thaliana with 18 samples.

Results

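Guard cells of wild-type Arabidopsis thaliana (Col-0) from leaf strips incubated in sucrose were set against those from strips incubated in mannitol, a sugar alcohol that is little metabolized and serves as the osmotic control. This comparison rests on 6 of the 18 arrays of the series: every wild-type sample labelled as treated with sucrose (n = 3) and every wild-type sample labelled as treated with mannitol (n = 3). Both groups received 150 mM of their sugar with 50 mM KCl for 5 h, and the further wild-type group used below (n = 3) had KCl and no sugars. Each sample was 1 plant, 8 to 10 weeks old, from which 50 to 100 guard-cell pairs were dissected out of freeze-dried leaf. By the study's methods the plants of 1 of the 3 biological replicates were grown some months after the rest. The deposited replicate 3 was taken to be that one, which the labels do not say, so values split by replicate number are given as replicate 3 against replicates 1 and 2. The same sucrose and mannitol treatments of the null mutant rgs1-2 (n = 3 each), which lacks a regulator of G-protein signalling, share no sample with the wild-type arrays and are set beside them. An rgs1 group with KCl and no sugars (n = 3) enters only where all 18 arrays were fitted. RGS1 itself lay between 8.17 and 10.35 on the sucrose and mannitol arrays of the wild type, against 3.14 to 3.69 on the rgs1 sucrose arrays and 4.93 to 5.75 on the rgs1 mannitol arrays, in log2 signal.

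Sugars are both fuel and signal in plant cells. When sugar is scarce, the kinase SnRK1 and bZIP transcription factors of the C and S1 groups switch on genes that recover carbon from cell walls, amino acids and cell contents. When sugar is plentiful, that set is switched off, and synthesis of ribosomes, starch and cell walls is favoured, partly through the TOR kinase. Guard cells, which open and close stomata, have few and small chloroplasts and take up much of their sugar from the apoplast, where sucrose collects as the leaf transpires.

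The label of the samples was checked against marker genes. All 10 guard-cell markers on the array, among them the potassium channels KAT1 and KAT2 and the kinase HT1, were at a log2 signal of 4 or more on each of the 6 arrays, and their summed signal spanned 15.75 to 15.99 (log2) with sucrose against 15.53 to 15.69 with mannitol, slightly higher on every sucrose array. The 10 mesophyll markers, enzymes of photorespiration and nitrogen assimilation that guard cells also contain, were also all at 4 or more, with sums of 12.77 to 12.87 with sucrose and 12.93 to 13.42 with mannitol. The 8 epidermis markers summed to 13.71 to 15.05 with sucrose and 13.52 to 14.89 with mannitol. Of the 5 phloem markers 0 reached 4 on 5 of the 6 arrays, and of the 4 trichome markers 1 did. On the array of sucrose replicate 1, 2 of each reached it: the phloem sucrose carrier SUC2 stood at 8.69 and the trichome regulator GL2 at 7.68, and the summed phloem signal was 8.80 against 4.68 to 4.81 on the others, with 2.24 to 2.75 for SUC2 and 2.31 to 2.42 for GL2 there. The part of these cells in any result was not tested. Since the arrays were scaled to each other, fewer cells of a type and less RNA per cell cannot be told apart.

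Large differences between the sugars were common, and so was scatter between plants. Of the 22746 probe sets, 11131 had a log2 signal of at least 4 on 3 or more of the 6 arrays and were tested, and 2950 of these (26.5%) differed at least 2-fold in their means, 1650 being higher with sucrose and 1300 lower. The median standard deviation of a probe set among the 3 plants of a group was 0.74 on the log2 scale with sucrose, 0.68 with mannitol and 0.58 without sugars. In a limma fit of the 6 arrays with Benjamini-Hochberg adjustment over the probe sets tested, 1 probe set passed an adjusted p of 0.05 (0.00898%), that of BXL1, and it was lower with sucrose. At an unadjusted p under 0.05 there were 551 higher (4.95%) and 442 lower (3.97%), all of them at least 2-fold apart. The sucrose and mannitol arrays did not overlap for 852 probe sets that were higher (7.65%) and 791 that were lower (7.11%). Over all 22746 probe sets, the base for the gene lists below unless the probe sets tested are named, 4.11% were higher and 6.38% were lower without overlap. Separation was about as frequent for mannitol against no sugars, which shares the mannitol arrays. There 7.61% of the 11131 probe sets were higher with mannitol and 7.83% lower without overlap.

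When all 18 arrays of the series were fitted together, so that the 6 groups shared 1 estimate of the spread, limma called 15 of the same 11131 probe sets (0.135%). The 10 that fell with sucrose in that fit (0.0898%) were BXL1, AT5G24210, AT2G25200, AT5G39030, BZO2H3, RK1, AT1G15740, AT1G27150, HR4 and RAP2.3, and the 5 that rose (0.0449%) were PLP9, GALS3, GALT29A, AT1G49380 and AT5G60670. Elsewhere adjusted p-values are those of the 6-array fit unless the 18 arrays are named, and genes that pass neither fit are described by their values. With the filter on low signals taken over all 18 arrays, a setting chosen after seeing the data, BZO2H3, AT5G24210, HR4, RK1 and AT5G60670 lost the call, each at a limma adjusted p of 0.057, and the other 10 kept it.

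The 2 largest differences below 0 among the probe sets tested were those of BXL1 and BGAL4, enzymes that release sugars from cell walls. BXL1, a beta-xylosidase that trims xylan and arabinan side chains, had log2 signals of 2.98, 3.00 and 2.93 with sucrose, against 10.91, 12.98 and 11.36 with mannitol, and 12.50, 11.80 and 9.07 without sugars. All 3 sucrose plants were at the floor of the array and all 3 mannitol plants among the brighter signals, with nothing between. The fitted difference was -8.78 (SE 0.62, limma adjusted p = 0.011), and because each sucrose value lies under 4, the signal can be said to be at least 215-fold lower (measured means of 2.97 and 11.75). The standard deviation was 0.03 with sucrose and 1.09 with mannitol, so the SE and p rest partly on the floor. With 18 arrays the SE was 1.43 (limma adjusted p = 0.028). Replicates 1 and 2 gave -8.96 and replicate 3 gave -8.43. The call was lost when replicate 3 was given a term of its own (limma adjusted p = 0.051), without any filter on low signals (limma adjusted p = 0.16), and on leaving out any of 5 of the 6 single arrays (limma adjusted p of 0.074 to 0.18), the exception being mannitol replicate 2.

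BGAL4, a beta-galactosidase, was likewise at the floor with sucrose, at 2.94, 2.94 and 2.85, against 9.77, 13.85 and 9.43 with mannitol. The groups were far apart, at least 129.5-fold, but mannitol replicate 2 stood well above the other mannitol plants, and BGAL4 did not pass the test (-8.10, SE 1.11, limma adjusted p = 0.30). Without that array it did (-6.69, SE 0.50, limma adjusted p = 0.032). Without sugars it was at 9.15 and 10.48 in replicates 1 and 2 and at 3.02 in replicate 3, which is close to the sucrose level. BGAL1, a further beta-galactosidase, had 4.53, 5.59 and 4.80 with sucrose, against 7.33, 10.69 and 12.19 with mannitol. ASD1, an alpha-arabinofuranosidase, had 5.86, 5.26 and 5.43 with sucrose, against 7.70, 9.51 and 8.05 with mannitol, and neither gene overlapped between the sugars (differences of -5.10, SE 1.15, and -2.90, SE 0.60). Of the 18 cell-wall glycosidase genes on the array 6 were lower without overlap (6.38% of all probe sets were) and 1 was higher (4.11% were), and the list's median difference was -0.03, the same as that of all probe sets. The higher one was BGAL3, at 9.73, 10.26 and 9.98 with sucrose, against 7.95, 8.02 and 8.77 with mannitol. The 7 members that did not reach the level for testing include BXL2, whose arrays did not overlap although both means were near 2.

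**Figure D1:**
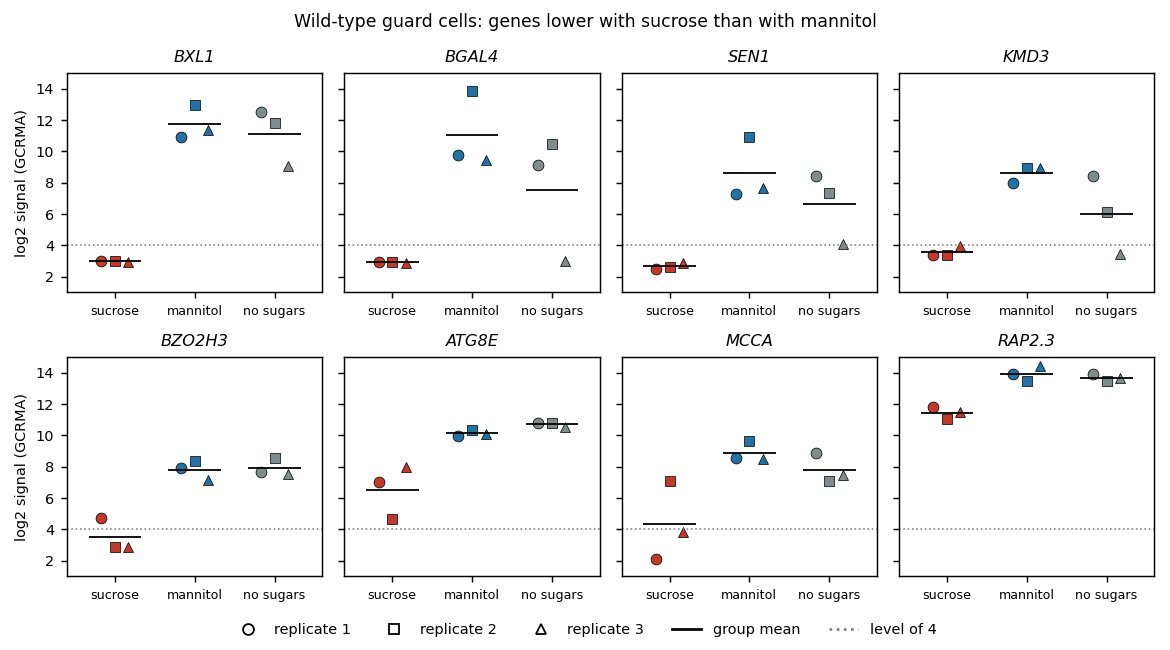
Log2 signal (GCRMA, vertical axis) of 8 genes on each wild-type array with sucrose, mannitol or no sugars (3 plants each, marked by replicate), with the group mean as a bar and the level of 4 dotted. The 3 sucrose plants lie below the 3 mannitol plants in every panel, and BXL1 is at 2.93 to 3.00 with sucrose against 10.91 to 12.98 with mannitol.

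Genes known to be induced by darkness and sugar starvation were lower with sucrose as a group. Of 27 such genes on the array, 24 of them tested, 18 were lower with sucrose without overlap and 0 were higher, against 6.38% lower and 4.11% higher of all probe sets. All 27 had a difference below 0, and the list's median was -2.88 against -0.03 over all probe sets. The list holds BXL1, BGAL4, SEN1, BZIP1, AKINBETA1 and TPS11, which the study singled out on these arrays, so its direction is not independent evidence. SEN1, a senescence gene also called DIN1, had 2.49, 2.61 and 2.88 with sucrose, against 7.31, 10.95 and 7.65 with mannitol, a difference of at least 24.9-fold (measured means of 2.66 and 8.64, limma adjusted p = 0.31). Every sucrose plant was at the floor, and among mannitol plants replicate 2 was again the highest. DIN10, of the raffinose synthase family, remained bright in both, at 7.59, 10.34 and 10.83 with sucrose, against 12.86, 13.85 and 12.34 with mannitol.

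Kelch-repeat F-box proteins mark other proteins for breakdown, and 3 of the 4 KMD genes on the starvation list were lower with sucrose without overlap (6.38% of all probe sets were). KMD3 had 3.38, 3.39 and 3.93 with sucrose, against 7.97, 8.91 and 8.93 with mannitol, at least 24.3-fold lower. It was the gene next to BXL1 in the test (-5.04, SE 0.50, limma adjusted p = 0.062), and it passed with quantile-normalized values (limma adjusted p = 0.042) or with only brighter probe sets tested (limma adjusted p = 0.036). Its level without sugars was scattered over both ranges, at 8.46, 6.15 and 3.43. KMD4 had 4.69, 5.11 and 9.44 with sucrose, against 10.03, 11.87 and 10.68 with mannitol. KMD1 had 8.97, 9.56 and 11.63 with sucrose, against 12.86, 12.82 and 13.11 with mannitol. For both genes sucrose replicate 3 was the highest sucrose plant, although still below the mannitol plants. KMD2, the brightest member with mannitol after KMD1, overlapped between the sugars, with a difference of -0.61.

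Members of the starvation list that did not separate were also found. DIN2, a beta-glucosidase, was at the floor on every array with sucrose and without sugars and was seen in mannitol replicate 2 only (10.78). ASN1, an asparagine synthetase often used as a starvation marker, was under the level for testing, with means of 2.2 with sucrose, against 2.7 with mannitol. GDH2 and ERD5, of glutamate and proline breakdown, had differences of -0.04 and -0.17. Per array, the median deviation of the 27 genes from their mean over the 6 arrays was -2.52, -1.36 and -0.66 with sucrose, against 1.04, 2.55 and 1.04 with mannitol. Sucrose replicate 3 was thus the sucrose plant closest to the mannitol plants, and the list's median difference ranged from -2.43 without sucrose replicate 1 to -3.66 without sucrose replicate 3. By replicate number it was -3.95 in replicates 1 and 2 and -1.37 in replicate 3.

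**Figure D2:**
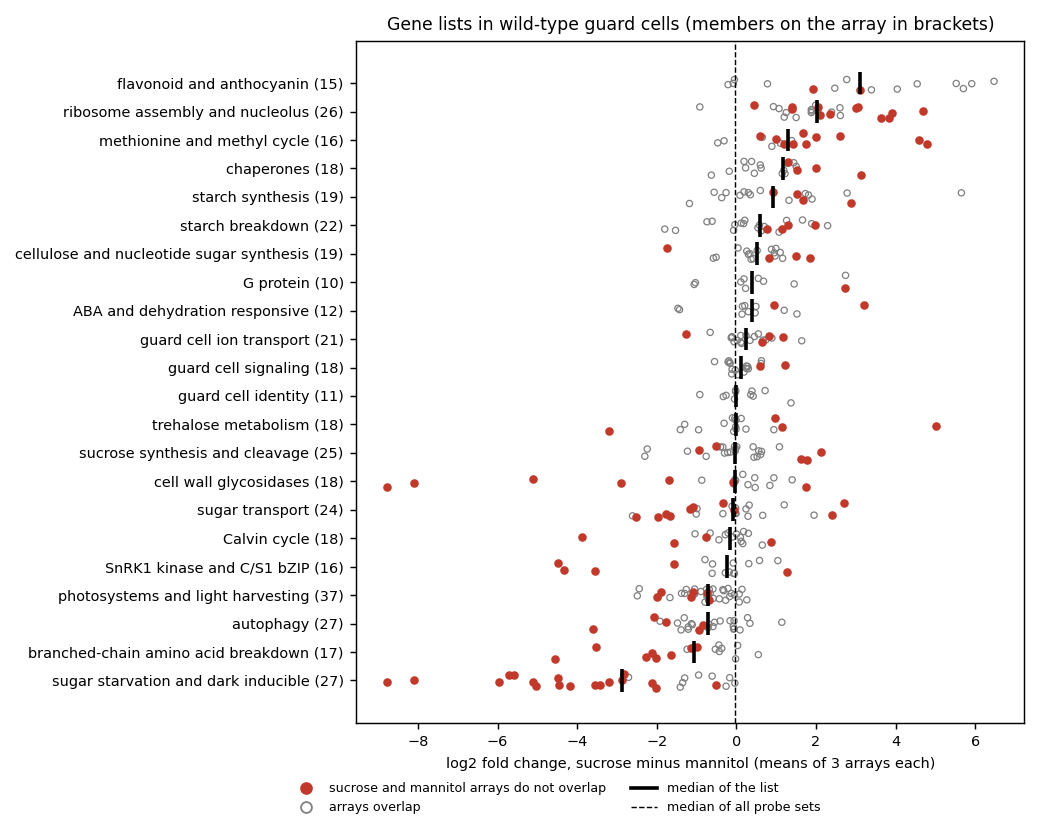
Log2 fold change (sucrose minus mannitol, horizontal axis) of every gene on the array in 22 lists, with filled points for genes whose 3 sucrose and 3 mannitol arrays do not overlap, a bar at each list's median and a dashed line at the median of all probe sets (-0.03). The starvation list has its median at -2.88, and the ribosome assembly list at 2.02.

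Of the regulators of this response, the bZIP factors and SnRK1 subunits were split. BZO2H3, also known as bZIP63, a C-group factor phosphorylated by SnRK1, had 4.70, 2.90 and 2.84 with sucrose, against 7.91, 8.38 and 7.18 with mannitol. It fell in the fit of 18 arrays (-4.34, SE 0.81, limma adjusted p = 0.047), though not with the filter over 18 arrays (limma adjusted p = 0.057), and the groups were apart by more than 2 log2 units in every pair of plants. BZIP1, its S1-group partner, had 4.78, 5.77 and 7.57 with sucrose, against 10.37, 11.87 and 9.32 with mannitol (-4.48, SE 0.90, limma adjusted p = 0.34). AKINBETA1, a regulatory beta subunit of SnRK1, had 6.80, 2.95 and 6.10 with sucrose, against 7.55, 9.55 and 9.39 with mannitol. KING1, a gamma-type subunit, had 8.82, 8.18 and 7.92 with sucrose, against 10.09, 9.77 and 9.78 with mannitol. These are the 4 of 16 genes on this list that were lower without overlap (6.38% of all probe sets were). AT4G16360 was the 1 that was higher (1.28, SE 0.61, where 4.11% of all probe sets were higher). The catalytic subunits KIN10 and KIN11 overlapped (differences of -0.60 and -0.79), as did the S1 factors BZIP53, bZIP2 and bZIP44 (-0.18, -0.08 and 0.31). The median of the list was -0.23.

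Trehalose 6-phosphate, made by trehalose-phosphate synthases, reports sucrose status in plants and inhibits SnRK1. The synthases without known catalytic activity in Arabidopsis went opposite ways. TPS5 had 10.31, 11.66 and 10.77 with sucrose, against 5.80, 2.62 and 9.30 with mannitol, and was high in every sucrose plant while the mannitol plants spread over more than 6 log2 units (5.01, SE 1.49, limma adjusted p = 0.44). TPS11 had 7.04, 6.93 and 9.31 with sucrose, against 10.00, 12.24 and 10.62 with mannitol (-3.20, SE 0.85, limma adjusted p = 0.41). TPS8, TPS9 and TPS10 overlapped, with differences of -0.95, -1.41 and -1.30, and TPS1, the main active enzyme, had a difference of 0.12. Of the 18 genes of trehalose metabolism on the array 3 were higher and 1 lower without overlap, against 4.11% higher and 6.38% lower of all probe sets, and the list's median was -0.02.

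Genes of branched-chain amino acid breakdown, a mitochondrial source of energy in starved cells, were lower with sucrose in 8 of 17 without overlap and higher in 0, with a median of -1.06 (-0.67 without mannitol replicate 2). Of all probe sets 6.38% were lower and 4.11% higher without overlap. MCCA, a subunit of methylcrotonyl-CoA carboxylase in leucine breakdown, had 2.13, 7.10 and 3.83 with sucrose, against 8.58, 9.66 and 8.48 with mannitol. Sucrose replicate 2 alone came near the mannitol plants (-4.55, SE 1.17, limma adjusted p = 0.39). IVD, the isovaleryl-CoA dehydrogenase that precedes it, had 3.00, 8.57 and 7.29 with sucrose, against 8.85, 11.18 and 9.41 with mannitol. Per array, the list's median deviation was -0.61, -0.42 and -0.59 with sucrose, against 0.27, 1.33 and 0.36 with mannitol, so the groups did not overlap by this measure. By the summed signal they did, at 13.12 to 13.58 (log2) with sucrose and 13.44 to 14.58 with mannitol. DIN4 and BCE2, subunits of the branched-chain dehydrogenase complex, belong to this list and to the starvation list and were lower without overlap (-2.11 and -2.01). BCAT-1 and BCAT-2, aminotransferases of the pathway, overlapped (0.55 and -1.24).

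Autophagy genes, whose products enclose cell contents for recycling in the vacuole, leaned the same way with smaller differences. Of 27 on the array 5 were lower without overlap and 0 higher, against 6.38% lower and 4.11% higher of all probe sets. Of the 27, 23 had a difference below 0, and the median was -0.71 (-0.42 without sucrose replicate 2). ATG8E, a ubiquitin-like protein of the autophagosome membrane, had 7.01, 4.63 and 7.98 with sucrose, against 9.98, 10.38 and 10.09 with mannitol. The mannitol plants were tightly grouped and the sucrose plants were not (-3.61, SE 0.84, limma adjusted p = 0.37, and 0.054 with 18 arrays). ATG11, APG5, ATG8F and ATG3 were the others that did not overlap, with differences from -2.07 to -0.85. The list's per-array median was 0.22 in sucrose replicate 1, above that of mannitol replicate 1 (0.10), so the list overlapped by this measure. Its summed signal did not, at 12.76 to 14.06 (log2) with sucrose and 14.21 to 14.72 with mannitol.

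Ribosome assembly and nucleolar genes leaned the opposite way. Of 26 on the array, all tested, 12 were higher with sucrose without overlap (7.65% of the probe sets tested were) and 0 were lower, 25 had a difference above 0, and the median was 2.02. The list holds HD2A, NOP56 and PWP2, which the study singled out on these arrays, so its direction is not independent evidence. HD2A, a plant-specific histone deacetylase of the nucleolus, had 7.30, 10.26 and 7.47 with sucrose, against 4.07, 2.94 and 3.98 with mannitol. All mannitol plants were near the level of 4, and all sucrose plants at least 3 log2 units above the highest of them (4.68, SE 0.86, limma adjusted p = 0.31, and 0.050 with 18 arrays). FIB2, a fibrillarin that methylates ribosomal RNA, had 9.89, 12.28 and 9.53 with sucrose, against 8.38, 4.90 and 6.69 with mannitol (3.91, SE 1.05). NOP56, its partner in small nucleolar particles, had 9.44, 11.03 and 8.06 with sucrose, against 6.97, 2.59 and 7.51 with mannitol (3.82, SE 1.36). For both genes replicate 2 was the highest plant with sucrose, and the replicate 2 with mannitol was the lowest plant of that group. PWP2, of the complex that processes the small-subunit RNA, was steadier, at 10.52, 10.98 and 9.37 with sucrose, against 7.35, 7.45 and 6.92 with mannitol (3.05, SE 0.56).

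Per array, the median deviation of the ribosome assembly genes was 0.14, 2.57 and 0.36 with sucrose and -0.26, -1.80 and -0.58 with mannitol. The groups did not overlap, but replicates 1 and 3 of the sugars were close to each other, and without sucrose replicate 2 the list's median difference was 1.02. By replicate number it was 2.36 in replicates 1 and 2 and 0.96 in replicate 3. Among genes of translation outside this list, AT5G60670, annotated as ribosomal protein L12 of the large subunit, rose in the fit of 18 arrays (2.98, SE 0.56, limma adjusted p = 0.047, and 0.057 with the filter over 18 arrays), with 7.69, 9.34 and 8.00 with sucrose, against 6.27, 4.08 and 5.74 with mannitol. RACK1B, a scaffold protein of the small ribosomal subunit that also binds G-protein signalling partners, had 10.64, 12.70 and 10.04 with sucrose, against 9.49, 6.62 and 9.07 with mannitol. RACK1C had 9.24, 11.05 and 7.81 with sucrose, against 7.81, 4.99 and 7.10 with mannitol, so that one plant of each sugar met at the same level.

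**Figure D3:**
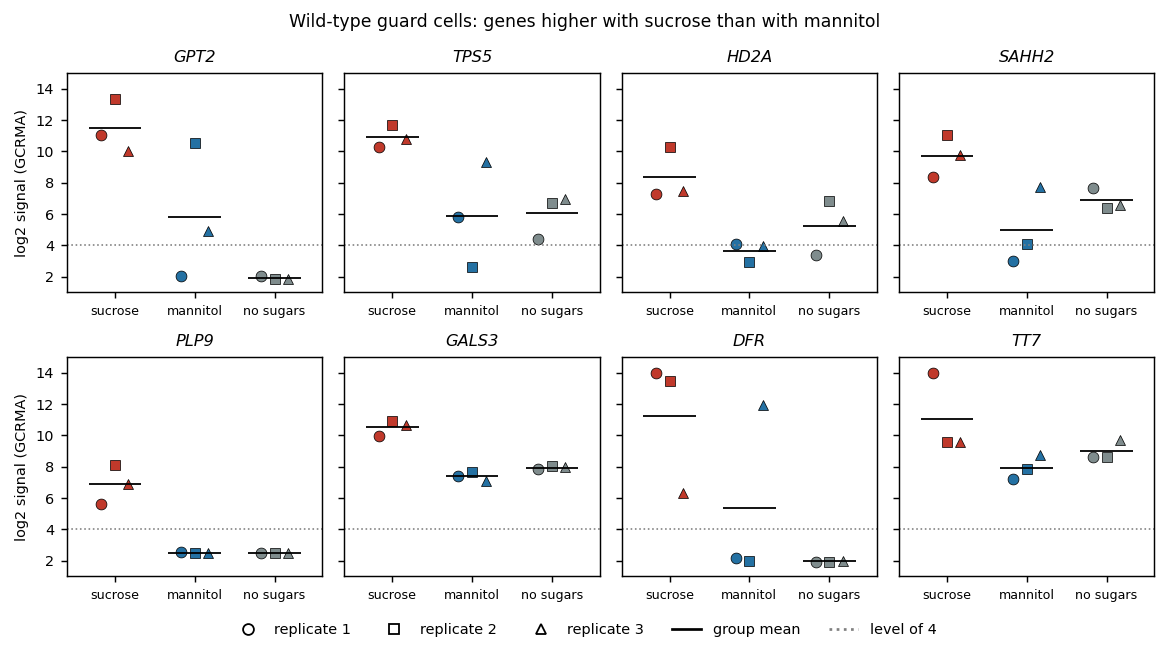
Log2 signal (GCRMA, vertical axis) of 8 genes on each wild-type array with sucrose, mannitol or no sugars (3 plants each, marked by replicate), with the group mean as a bar and the level of 4 dotted. PLP9 is at 5.61 to 8.14 with sucrose against 2.49 to 2.53 with mannitol, whereas the mannitol plants of GPT2 and DFR spread from 2.02 to 10.55 and from 1.96 to 11.94.

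The methionine and methyl cycle, which makes the methyl donor S-adenosylmethionine and recycles its products, was higher with sucrose in 10 of 16 genes without overlap and lower in 0, with a median of 1.30. All 16 were tested, and of the probe sets tested 7.65% were higher and 7.11% lower without overlap. The list holds NMT3, which the study singled out on these arrays, so its direction is not independent evidence. SAHH2, which clears S-adenosylhomocysteine, had 8.39, 11.05 and 9.77 with sucrose, against 3.02, 4.08 and 7.74 with mannitol (4.79, SE 1.25, limma adjusted p = 0.40). NMT3, which methylates phosphoethanolamine on the way to choline, had 9.97, 11.86 and 10.45 with sucrose, against 5.92, 3.84 and 8.78 with mannitol (4.58, SE 1.19). In both genes mannitol replicate 3 was the closest to the sucrose plants. ADK2, an adenosine kinase that removes the other product of SAHH2, had a difference of 2.59, the methionine synthase MS2 of 2.00 and the S-adenosylmethionine synthetase MAT3 of 1.67, none with overlap (MS2 shares probes with a relative). Per array the list's median deviation was 0.49, 1.31 and 0.35 with sucrose and -0.49, -0.97 and -0.33 with mannitol. By replicate number the median difference was 1.60 in replicates 1 and 2 and 0.77 in replicate 3.

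Chaperones leaned the same way, with 4 of 18, all tested, higher without overlap (7.65% of the probe sets tested were), 0 lower, and a median of 1.17 (0.64 without sucrose replicate 2). HSP60, a mitochondrial chaperonin, had 9.69, 12.14 and 9.25 with sucrose, against 8.45, 6.62 and 6.67 with mannitol (3.12, SE 0.89, limma adjusted p = 0.44). The plastid chaperonins CPN60A and CPN20 (2.00 and 1.51) and BIP1 of the endoplasmic reticulum (1.30) were the others that did not overlap. HSP90.1 and Hsp70-2, which respond to heat, had differences of -0.63 and -0.18. Sucrose replicate 2 carried the highest list value of all 6 arrays (1.51), and sucrose replicate 1 (-0.32) was below mannitol replicate 2 (-0.06).

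**Figure D4:**
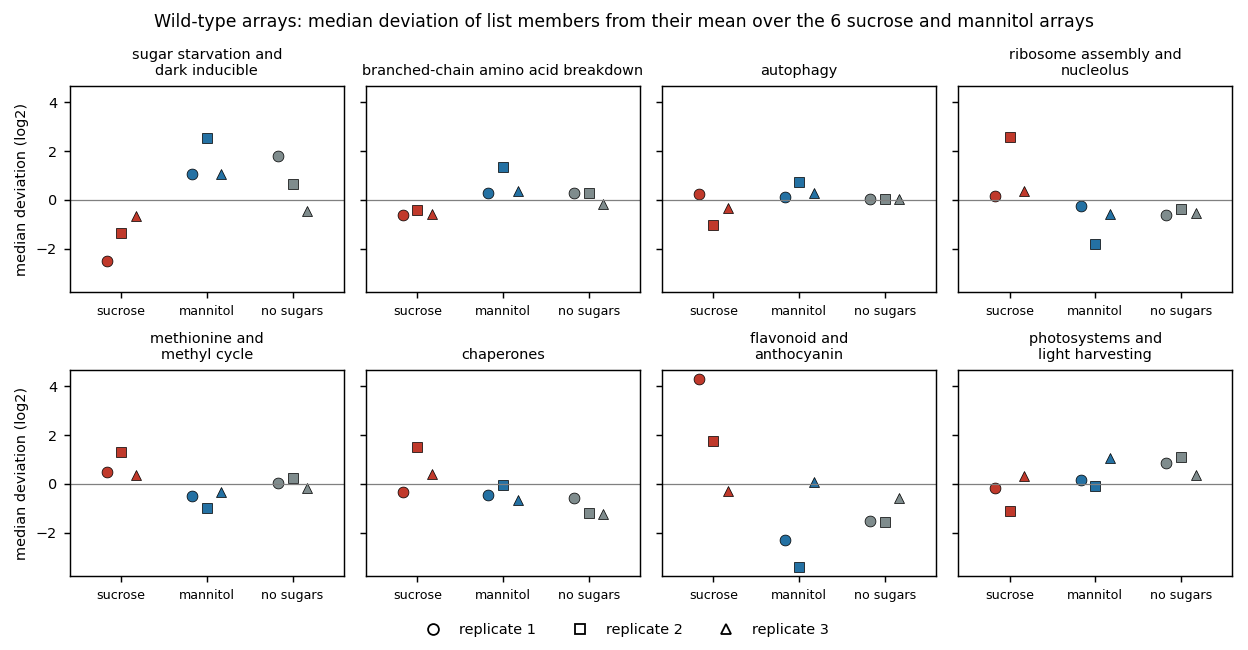
Median deviation (log2, vertical axis) of the genes of 8 lists from their own mean over the 6 sucrose and mannitol arrays, for each wild-type array with sucrose, mannitol or no sugars (marked by replicate). The starvation genes lie between -2.52 and -0.66 with sucrose against 1.04 to 2.55 with mannitol, while the flavonoid genes of sucrose replicate 3 (-0.29) lie below those of mannitol replicate 3 (0.08).

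Of 19 starch synthesis genes on the array 4 were higher with sucrose without overlap and 0 lower, and of 22 breakdown genes likewise 4 and 0, against 4.11% higher and 6.38% lower of all probe sets. The median difference of the synthesis genes was 0.91, with 0.58 without mannitol replicate 2 as the lowest value on leaving out 1 array and 1.28 without sucrose replicate 1 as the highest. That of the breakdown genes was 0.60, with 0.32 without sucrose replicate 2 and 0.79 without mannitol replicate 3. In replicates 1 and 2 the medians were 1.14 and 0.89, and in replicate 3 they were 0.24 and 0.10. APL3, a large subunit of ADP-glucose pyrophosphorylase, the committed step of starch synthesis, had 9.70, 11.58 and 9.39 with sucrose, against 7.57, 7.52 and 6.93 with mannitol (2.89, SE 0.67, limma adjusted p = 0.37, and 0.065 with 18 arrays). The sucrose plants were all above the mannitol plants by more than 1.5 log2 units. The other synthesis genes without overlap were the small subunit ADG1 (0.91), the starch synthase SS1 (1.52) and the isoamylase ISA1 (1.67). SS4, APL1, GPT1 and SS3 had differences below 0 (-1.18 to -0.26).

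GPT2, which imports glucose 6-phosphate into plastids, had the largest difference among starch genes and the widest spread, at 11.08, 13.34 and 10.01 with sucrose, against 2.02, 10.55 and 4.92 with mannitol. Mannitol replicate 2 was above sucrose replicate 3, so the groups overlapped (5.65, SE 1.99, limma adjusted p = 0.50). Without sugars GPT2 was at the floor in all 3 plants (2.01, 1.83 and 1.83), and against these plants, a comparison that shares the sucrose arrays, the signal with sucrose was at least 178.1-fold higher (measured means of 11.48 and 1.89, limma adjusted p = 0.038). GPT2 was the 1 probe set of 11122 called in that comparison (0.00899%), and 0 were called without sucrose replicate 1 or without replicate 1 or 2 of the plants without sugars. Of the breakdown genes ISA3, a debranching isoamylase, had 7.96, 11.07 and 9.20 with sucrose, against 6.87, 7.62 and 7.82 with mannitol, while AMY3, RCP1 and SEX1 had differences of 1.14, 1.29 and 0.76 without overlap. LSF2, a glucan phosphatase, had a difference of -1.80 with overlap.

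Sugar transporters were lower with sucrose in 8 of 24 without overlap and higher in 2, with a median of -0.08, SWEET11 being among the lower ones at the floor of the array. Of all probe sets 6.38% were lower and 4.11% higher without overlap. SUC1, a sucrose-proton symporter of the plasma membrane, had 9.77, 11.17 and 9.04 with sucrose, against 12.03, 11.53 and 11.45 with mannitol (-1.68, SE 0.63, limma adjusted p = 0.53). STP4, a hexose carrier, was bright in both, at 12.60, 12.11 and 12.20 with sucrose, against 13.43, 13.62 and 13.13 with mannitol (-1.09, SE 0.45). PMT6, a polyol carrier, had 10.26, 9.88 and 11.12 with sucrose, against 12.16, 12.56 and 11.82 with mannitol. STP14 and PGLCT, the glucose exporter of plastids, were lower by similar or larger amounts (-2.51 and -1.96). The 2 higher ones are both at the vacuole: the fructose facilitator SWEET17, at 7.37, 7.33 and 6.77 with sucrose, against 5.06, 4.36 and 4.90 with mannitol, and the hexose carrier TMT2, at 7.78, 7.29 and 8.04 with sucrose, against 4.54, 3.27 and 7.18 with mannitol. STP1 and PMT5, among the brightest transporters on these arrays, overlapped (-0.34 and -0.11). Genes of sucrose synthesis and cleavage were mixed. Of 25 on the array 3 were higher without overlap and 2 lower, against 4.11% higher and 6.38% lower of all probe sets. The list's median was -0.03. The higher ones were the invertases CINV2 and FRUCT5 and the UDP-glucose pyrophosphorylase UGP1 (1.62, 1.76 and 2.12). The invertase A/N-InvC was lower (-0.94), and the invertases CINV1 and AT1G62660 had differences of -2.30 and -2.24 with overlap.

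Photosystem and light-harvesting genes were lower with sucrose without overlap in 6 of 37, all tested, and higher in 0, against 7.11% lower and 7.65% higher of the probe sets tested. Of the 37, 33 had a difference below 0, and the median was -0.71. LHCB4.3, an antenna protein of photosystem II, had 7.50, 7.65 and 8.92 with sucrose, against 9.75, 9.14 and 10.85 with mannitol (-1.89, SE 0.64, limma adjusted p = 0.48). PSAN of photosystem I had a difference of -1.99, and LHCB4.1, LHCB4.2, LHCA2 and PSBW had differences of -1.13 to -0.70. The list's per-array medians overlapped, at -0.15, -1.12 and 0.30 with sucrose and 0.14, -0.08 and 1.07 with mannitol, and without sucrose replicate 2 the median difference was -0.29. Beside this, the summed mesophyll markers were lower on every sucrose array than on every mannitol array, with GLU1 and GOX2 the 2 of 10 that were lower without overlap, and their part in the photosystem values was not tested. In the Calvin cycle CP12-2, a small protein that binds its enzymes in the dark, had 6.69, 3.02 and 7.82 with sucrose, against 9.56, 8.25 and 11.38 with mannitol (-3.88, SE 1.31), while most of the 18 genes of the list overlapped and the median was -0.15. That median changed sign between arrays, at 0.22 without mannitol replicate 3 and -0.57 without mannitol replicate 2, and was 0.24 in replicates 1 and 2 and -1.22 in replicate 3.

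Of 19 genes of cellulose and nucleotide-sugar synthesis, all tested, 3 were higher with sucrose without overlap and 1 lower, against 7.65% higher and 7.11% lower of the probe sets tested. The median was 0.52, ranging from 0.44 without mannitol replicate 1 to 0.92 without mannitol replicate 3. UGD2 and UDG4, which make UDP-glucuronic acid, had differences of 1.86 and 1.49, the epimerase UGE1 of -1.74, and the cellulose synthase CESA1 of 1.16 with overlap. A pair of galactosyltransferases outside this list rose in the fit of 18 arrays. GALS3, of a family that builds pectic galactan, had 9.96, 10.94 and 10.68 with sucrose, against 7.41, 7.64 and 7.09 with mannitol (3.15, SE 0.53, limma adjusted p = 0.028). GALT29A, which acts on arabinogalactan proteins, had 4.94, 5.49 and 4.77 with sucrose, against 2.55, 2.53 and 2.39 with mannitol, at least 2.1-fold higher (2.58, SE 0.43, limma adjusted p = 0.028). For GALS3 the spread within each sugar was a small part of the gap. GALT29A was under 4 on every mannitol array, so its spread there is that of the floor, and its SE and p rest partly on it.

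PLP9, a patatin-like protein of a family of lipid hydrolases, had the smallest adjusted p of the fit of 18 arrays. It was seen only with sucrose, at 5.61, 8.14 and 6.87, against 2.53, 2.49 and 2.50 with mannitol and 2.47, 2.46 and 2.46 without sugars, at least 7.34-fold higher (means of 6.88 and 2.51, difference 4.37, SE 0.52, limma adjusted p = 0.0026 with 18 arrays). AT1G49380, annotated for cytochrome c biogenesis, also rose in that fit, at 5.31, 4.72 and 4.73 with sucrose, against 2.94, 3.13 and 2.91 with mannitol. Both genes were under 4 on every mannitol array, so the size of their difference rests on the floor, and its SE and p do so in part. For PLP9 the standard deviation was 1.26 with sucrose, 0.02 with mannitol and 0.01 without sugars. Both entered the test through their sucrose arrays only.

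Among the genes that fell in the fit of 18 arrays, RAP2.3 was the brightest. This ethylene response factor of the group that senses low oxygen had 11.80, 11.06 and 11.47 with sucrose, against 13.95, 13.48 and 14.46 with mannitol, and 13.91, 13.50 and 13.67 without sugars (-2.52, SE 0.43, limma adjusted p = 0.028). Sucrose plants and the others were apart by more than 1.5 log2 units. AT1G27150, of unknown function, had 4.51, 5.51 and 6.42 with sucrose, against 9.34, 8.70 and 9.38 with mannitol (-3.66, SE 0.47, limma adjusted p = 0.0037). AT5G39030, annotated as a protein kinase, had 3.27, 4.04 and 5.54 with sucrose, against 8.85, 9.15 and 8.11 with mannitol (-4.42, SE 0.60, limma adjusted p = 0.0050). AT5G24210, annotated as a lipase, had 6.42, 6.36 and 7.89 with sucrose, against 10.10, 13.98 and 11.85 with mannitol (-5.09, SE 0.95). HR4, related to the resistance protein RPW8, AT1G15740, a leucine-rich repeat protein, AT2G25200 and the receptor kinase RK1, whose probes are shared with relatives, made up the rest, with differences of -3.13, -3.71, -4.95 and -3.80. Of these genes AT5G24210, HR4 and RK1 did not keep the call with the filter over 18 arrays (limma adjusted p = 0.057 each).

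Some of the genes furthest apart were high with mannitol and low in both other groups. UGT74F2, which attaches glucose to salicylic acid, had 2.26, 2.03 and 3.29 with sucrose, against 4.1, 10.47 and 8.43 with mannitol, and 3.80, 2.82 and 2.25 without sugars. UGT75B1, a further glucosyltransferase, had 3.53, 3.99 and 6.17 with sucrose, 9.57, 10.79 and 7.74 with mannitol, and 6.74, 4.36 and 4.71 without sugars. LOX1, a lipoxygenase that starts oxylipin synthesis, had 5.67, 5.46 and 5.68 with sucrose, 8.78, 11.50 and 7.71 with mannitol, and 6.26, 5.05 and 6.73 without sugars. In each of the 3 genes all mannitol plants lay above all plants of both other groups. By contrast, for BXL1, BZO2H3, ATG8E and RAP2.3 the plants without sugars were in or near the range of the mannitol plants. The differences of these comparisons share arrays: for BZO2H3 sucrose minus no sugars was -4.43 and mannitol minus no sugars -0.09, and for LOX1 the means were 5.61 with sucrose, 9.33 with mannitol and 6.01 without sugars. Over all probe sets, mannitol against no sugars gave 0 calls of 11052 in limma, with 967 at an unadjusted p under 0.05 (8.75%).

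Flavonoid and anthocyanin genes had the largest median difference of the 22 lists, 3.11 over 15 genes on the array, yet only 2 were higher without overlap (4.11% of all probe sets were). Replicate 3 differed in sign from the others: in replicates 1 and 2 the median difference was 4.25, and in replicate 3 it was -0.58. DFR, which makes the colourless precursors of anthocyanins, had 14, 13.46 and 6.33 with sucrose, against 2.14, 1.96 and 11.94 with mannitol. Its high plants were thus sucrose replicates 1 and 2 and mannitol replicate 3, a difference of 5.91 (SE 3.02, limma adjusted p = 0.62). In the fit of 2 against 2 plants without replicate 3, DFR passed (limma adjusted p = 0.047, at least 849.1-fold higher, measured means of 13.73 and 2.05). That fit leaves out the values of DFR that ran the other way, so its pass is no support for a difference. TT4, the chalcone synthase at the head of the pathway, had 14.21, 11.82 and 6.30 with sucrose, against 2.2, 1.67 and 9.04 with mannitol. PAP1, a MYB activator of the pathway, had 13.32, 11.46 and 9.38 with sucrose, against 8.00, 4.25 and 11.75 with mannitol, and TT8, its bHLH partner, had 11.17, 9.86 and 5.97 with sucrose, against 3.02, 2.87 and 7.50 with mannitol. All 4 genes had mannitol replicate 3 above sucrose replicate 3.

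The 2 genes without overlap were TT7, which adds a hydroxyl group to the flavonoid ring, at 13.98, 9.61 and 9.57 with sucrose, against 7.21, 7.88 and 8.74 with mannitol, and the flavonol synthase FLS1, at 9.59, 8.81 and 9.31 with sucrose, against 7.0, 7.59 and 7.31 with mannitol. The early genes CHIL and 4CL3, which were not on the list, did not overlap either. CHIL, a chalcone isomerase-like protein, had 11.61, 7.94 and 4.04 with sucrose, against 2.85, 2.28 and 3.01 with mannitol, and 4CL3, a coumarate:CoA ligase, had 12.14, 9.14 and 7.44 with sucrose, against 5.99, 5.01 and 5.16 with mannitol. Sucrose replicate 1, the array with the phloem and trichome signals given above, was the highest of the 3 sucrose plants for each of these genes from DFR to 4CL3, and the part of those cells was not tested. Without that array the list's median difference was 2.13.

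Guard-cell genes were also compared. The 21 ion transport genes had a median difference of 0.24, the 18 signalling genes of 0.11, and the 11 genes of guard-cell identity of -0.02. KAT2, an inward potassium channel, and HA2, a plasma-membrane proton pump, were higher without overlap (1.18 and 0.83), as was OZS1, the anion channel also called SLAC1 (0.63), where 4.11% of all probe sets were. KAT3 was lower (-1.26), the anion channel ALMT6 had a difference of 1.64 with overlap, and the outward channel GORK and the antiporter CHX20 had differences of 0.11 and 0.02. RBOHD, the NADPH oxidase of guard-cell signalling, had 10.09, 9.43 and 9.34 with sucrose, against 8.85, 8.06 and 8.26 with mannitol (1.23, SE 0.49, limma adjusted p = 0.53). Of 12 genes responsive to abscisic acid or dehydration 2 were higher without overlap (4.11% of all probe sets were). These were KIN1 (0.94) and COR15A, a protective protein of chloroplasts with 7.55, 6.71 and 11.05 with sucrose, against 4.76, 4.23 and 6.68 with mannitol. COR15A without sugars (7.45, 7.58 and 7.42) was above every mannitol plant and within the range of the sucrose plants.

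The rgs1 arrays provide the same contrast in plants that share no sample with the wild type. Among probe sets at least 8-fold higher without overlap in the wild type (52), 49 had the same sign in rgs1 and 29 (55.77%) were also higher without overlap, against 9.63% of all probe sets tested. Among those at least 8-fold lower without overlap (61), 59 had the same sign and 42 (68.85%) were also lower without overlap, against 8.29% of all probe sets tested. The sign was the same in both genotypes for 64.12% of all probe sets tested. The starvation genes were lower without overlap in both genotypes in 16 of 27, the methyl-cycle genes higher in 10 of 16 and the ribosome assembly genes higher in 8 of 26, where 1.32% of all probe sets were lower and 1.13% higher without overlap in both genotypes. The study compared the sugars within each genotype and drew its main set of sucrose-responsive genes from the arrays of both genotypes pooled. These lists hold some of those genes. For the lists the rgs1 arrays are therefore not independent evidence. BXL1 in rgs1 was at 3.09, 2.94 and 2.94 with sucrose, against 8.90, 12.09 and 13.71 with mannitol. HD2A in rgs1 was at 8.95, 8.46 and 8.49 with sucrose, against 5.35, 3.03 and 3.53 with mannitol, with no overlap for either gene.

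DFR in rgs1 was at 13.87, 1.92 and 1.92 with sucrose and at the floor with mannitol (2.00, 1.95 and 1.97), so 1 of 3 sucrose plants had it. AT5G39030, RK1 and AT1G49380, called in the wild type with 18 arrays, had differences of -0.43, -0.59 and -0.03 in rgs1, where those of BXL1, BZO2H3, PLP9 and RAP2.3 were -8.58, -4.52, 3.55 and -1.94. A difference of the sucrose response between the genotypes was called by limma for 0 of the 12608 probe sets at 4 or more on 3 or more of the 18 arrays, with 499 at an unadjusted p under 0.05 (3.96%), so none of these contrasts between wild type and rgs1 passed the test.

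**Figure D5:**
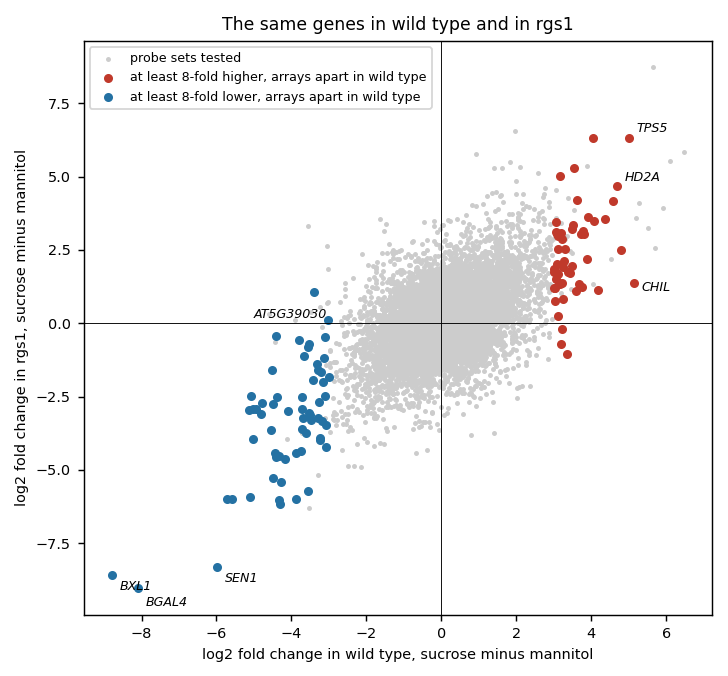
Log2 fold change (sucrose minus mannitol) of each probe set tested in the wild type (horizontal axis) and in rgs1 (vertical axis), with the 52 and 61 probe sets that were at least 8-fold higher or lower without overlap in the wild type in colour. Of the coloured points 49 and 59 have the same sign in rgs1, where 64.12% of all probe sets tested do. AT5G39030 is one of the coloured points near 0 in rgs1 (-0.43).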

How the data were processed

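RNA of dissected guard cells was amplified in 2 rounds and hybridized to Affymetrix ATH1 arrays. The deposited values are log2 signals, 1 per probe set and array, which the authors made from the scans with GCRMA (background correction, normalization between arrays, summary of the probes of a set). They were used as deposited. The table by gene and the table by probe set held the same values, and no value was missing. Of 22746 probe sets, 21604 were named through 1 locus, and 1061 have probes shared between genes.

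A log2 signal under 4 was taken as the floor of the arrays. Probe sets at 4 or more on 3 of the 6 arrays entered a limma fit (limma 3.58.1, R 4.3.3, a constant prior, Benjamini-Hochberg adjustment, adjusted p under 0.05), with sucrose minus mannitol as the contrast and the 6 arrays alone in the fit. A difference is that of group means, and SE is the moderated standard error. Where all arrays of 1 sugar were under 4, "at least" sets the mean of the other sugar against 4. Arrays of 2 groups do not overlap where the lowest of one is above the highest of the other. The number of arrays limits the precision. The p-values rest on the spread between single plants. Where a group lies under 4, its spread is that of the floor, and SE and p rest partly on it.

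Genes were named where they passed the fit of 6 or 18 arrays, were among the 12 largest differences each way with an unadjusted p under 0.05 and no overlap, had the 4 largest differences of a list, or were measured by real-time PCR in the study. Other list members given as examples were chosen after their values were seen. The 22 lists of function (440 genes, 423 on the array, 364 tested) and 5 lists of markers were written from general knowledge. Several lists hold genes that the study had reported from these arrays, so the direction of such a list is not independent evidence. The comparison, the lists and the tests were chosen with earlier results of these data known. Fits were tested on simulated data. Control probe sets for RNA quality, promoter sequences, the study's leaf arrays and its real-time PCR were not analysed here.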

Additional observations from a re-analysis of the deposited data

How the results depend on the processing

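Every count here is of probe sets called by limma at an adjusted p under 0.05 for wild-type sucrose against mannitol, where the fit of 6 arrays called 1. No filter, gene-by-gene t statistics, replicate 3 as a term and the replicate block gave 0, a filter at a level of 6 and quantile normalization gave 2, the 12 sucrose and mannitol arrays of both genotypes gave 5, all 18 arrays gave 15, and 18 arrays with the filter taken over all of them, chosen after seeing the data, gave 10. Median centring, the series' own value table, an intensity trend, array weights and the 9 wild-type arrays gave 1. Leaving out 1 array or 1 replicate number gave 0 to 2. The replicate numbers were not used as pairs in the main fit. Deviations of same-numbered arrays from their group means correlated at -0.086, -0.035 and -0.030, and those of arrays with other numbers at -0.13 to 0.19. With the replicate block 825 probe sets had an unadjusted p under 0.05, against 993 without it. Whether same-numbered plants shared a growth batch was not tested. Sucrose against no sugars gave 0 to 16 calls on leaving out 1 array, with 16 without sucrose replicate 3 and 0 without sucrose replicate 1 or without replicate 1 or 2 of the arrays without sugars, and mannitol against no sugars and the difference between genotypes gave 0 under each alternative run. The differences of 37 named genes under 24 alternatives kept their sign in all of 882 values. Of these 840 stayed on the same side of the threshold, 30 newly passed it and 12, all of BXL1, no longer did. Where groups do not overlap, leaving out arrays cannot turn the sign, and another filter or statistic leaves the difference unchanged. The kept signs were thus largely set by how genes were named. COR47, which overlapped, ranged from -2.60 to 0.13 on leaving out arrays. Signals near the floor limit what can be said of genes under 4.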
